A study of Mus musculus with 8 samples.

Results

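Sprouty (Spry), Spred and dual-specificity phosphatase (Dusp) genes belong to the feedback of the MAPK pathway. Together with the ETS factor gene Etv4, they were followed across 8 RNA-seq libraries of mouse mammary tumor cells. The 10 genes Spry1, Spry2, Spry4, Spred1, Spred2, Spred3, Dusp4, Dusp5, Dusp6 and Etv4 were taken by name from a table of 53697 genes. All 10 were expressed well enough to be among the 18322 genes tested. They were chosen from a pathway seen to differ in these same data, so their differences between Dll1+ and Dll1- cells, and between reporters, are given as a description and without a p-value. A gene is said to be past the threshold when its adjusted p, from edgeR's quasi-likelihood test over all 18322 genes, was under 0.05.

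All mice carried the MMTV-PyMT transgene, which drives polyoma middle T antigen from a mammary tumor virus promoter active in mammary epithelium, on a C57BL/6 background. Mice 1 and 2 carried the Dll1-GFP reporter, a knock-in (GFP mice), and mice 3 and 4 the Dll1-mCherry reporter, which is BAC-based (mCh mice). Dll1 is a ligand of Notch receptors. Tumors were digested with collagenase and hyaluronidase, cells with CD45, CD31 or TER119 were removed, and each mouse gave 1 library of reporter-positive (Dll1+) and 1 of reporter-negative (Dll1-) cells. No treatment, age or time was given with the libraries, and each reporter was carried by different mice, so that the reporter line and the mice cannot be told apart.

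In the cell, a growth factor bound to its receptor tyrosine kinase activates RAS, then RAF, MEK and ERK. ERK enters the nucleus and induces genes, among them inhibitors of its own pathway. Sprouty proteins act near the receptor and RAS, Spred1 and Spred2 bring neurofibromin (Nf1), which switches RAS off, to the membrane, and the phosphatases Dusp4, Dusp5 and Dusp6 remove the activating phosphates from MAP kinases. Etv4 is a PEA3-type ETS transcription factor whose transcript follows FGF and ERK signaling in many tissues. In the mammary gland, FGF and EGF receptor signaling through this pathway is known for its role in branching and in tumor growth.

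The sequences before the starts of 3 genes are shown because Dusp6 and Spry2 were higher in Dll1+ cells of all 4 mice while Spry1 was lower in all 4. Each is the 250 bases upstream of the gene start in RefSeq (GRCm38.p6), written 5′ to 3′ on the strand of the gene. Capitals mark the ETS core, CGGAAG on either strand. The Dusp6 window is chr10:99262981-99263230 (+), the Spry2 window chr14:105896820-105897069 (-) and the Spry1 window chr3:37639697-37639946 (+).
Dusp6: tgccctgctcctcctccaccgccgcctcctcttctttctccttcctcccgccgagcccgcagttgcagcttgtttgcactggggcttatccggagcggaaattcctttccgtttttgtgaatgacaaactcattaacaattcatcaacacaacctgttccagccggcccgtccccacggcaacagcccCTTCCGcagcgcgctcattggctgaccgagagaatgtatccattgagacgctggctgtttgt
Spry2: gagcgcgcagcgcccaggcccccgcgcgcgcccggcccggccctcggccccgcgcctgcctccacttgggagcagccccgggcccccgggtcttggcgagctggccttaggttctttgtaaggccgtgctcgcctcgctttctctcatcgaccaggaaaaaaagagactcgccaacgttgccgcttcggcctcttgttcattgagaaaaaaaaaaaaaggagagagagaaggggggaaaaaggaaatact
Spry1: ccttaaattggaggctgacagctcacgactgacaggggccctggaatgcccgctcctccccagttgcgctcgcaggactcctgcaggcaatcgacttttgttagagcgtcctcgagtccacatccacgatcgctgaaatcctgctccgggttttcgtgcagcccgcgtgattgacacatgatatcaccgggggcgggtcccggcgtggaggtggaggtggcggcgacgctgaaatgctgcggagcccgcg

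The Dusp6 window held 1 ETS core, which began 62 bases before the start, and the Spry2 and Spry1 windows held none. RefSeq promoters were matched for 7 of the 10 genes, and the core stood in 3 of the 7 (Dusp6, Spred1 and Spred2). It stood in 13.6% of 32851 promoters in windows of the same length, which were not matched for GC content. The RefSeq start of Spred1 was not found in a GENCODE transcript, and its window had 70.8% GC with 31 CpG sites. Searched on both strands, the longer ETS form CCGGAAGT (2.88% of all promoters), the AP-1 motif TGANTCA (6.75%) and the CRE TGACGTCA (1.55%) were in 0 of the 7. The RBPJ motif TGGGAA, the motif of the Notch effector, was in Spred2 (21.6% of all promoters). The Spry1 and Spry2 windows had the same GC content, 62.4% with 23 CpG sites each, and the Dusp6 window had 56.4% with 16, where the median promoter had 52.4% and 6. A match describes letters in a window and no more, and the Dusp6 and Spry2 windows, whose genes had alike profiles across the libraries, did not share the ETS core.

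Library totals ranged from 27301396 to 123907626 counts. Dll1 was at 7.61 to 50.3 CPM (counts scaled by TMM to a library of common size) in the Dll1- and at 87.5 to 250 CPM in the Dll1+ libraries, so the sort label matched the transcript in every mouse. Epithelial markers (5 genes) summed to between 4742 and 8146 CPM in the 8 libraries. The 2 Dll1- libraries of mCh mice stood apart. Their 7 fibroblast markers summed to 7438 and 21386 CPM, against 2982 and 3236 in the Dll1+ libraries of the same mice and 987 to 1220 in the 4 libraries of GFP mice. Pericyte markers (5 genes) were also highest there, at 565 and 724 CPM against 149 to 186 in the other 6. Endothelial markers (8 genes) were at 155 and 347 CPM there against 43.3 to 90.9, and immune markers (7 genes) at 116 and 133 against 27.9 to 64.2. No fibroblast, pericyte or endothelial marker was at 0 in a library, and 1 immune marker was at 0 in 3 libraries of GFP mice. In mCh mice, 4 of 7 fibroblast, 4 of 5 pericyte, 2 of 8 endothelial and 5 of 6 tested immune markers were past the threshold as lower in Dll1+ cells, and in GFP mice none of these markers was. In bulk RNA, fewer cells of a type and less RNA per cell cannot be told apart.

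The question asked of the 10 genes was whether Dll1+ cells differ from Dll1- cells of the same tumor. Over 4 mice, 3 of the 10 were past the threshold, with Spry2 and Dusp6 higher and Spry1 lower in Dll1+ cells. Of all genes tested, 14.0% were past it in this comparison, a share that is given beside the count only, since this contrast chose the genes. The median log2 fold change of the 10 genes was 0.16, beside 0.00 for all genes. By direction in single mice, 4 genes (Spry2, Spred1, Spred3 and Dusp6) were higher in the Dll1+ library of all 4 mice, as were 21.4% of all genes, and 2 (Spry1 and Dusp4) were lower in all 4, as were 19.9%. When the mouse was left out of the model as a block, 0 of the 10 were past the threshold, where 1207 of the 18322 genes were.

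**Figure D1:**
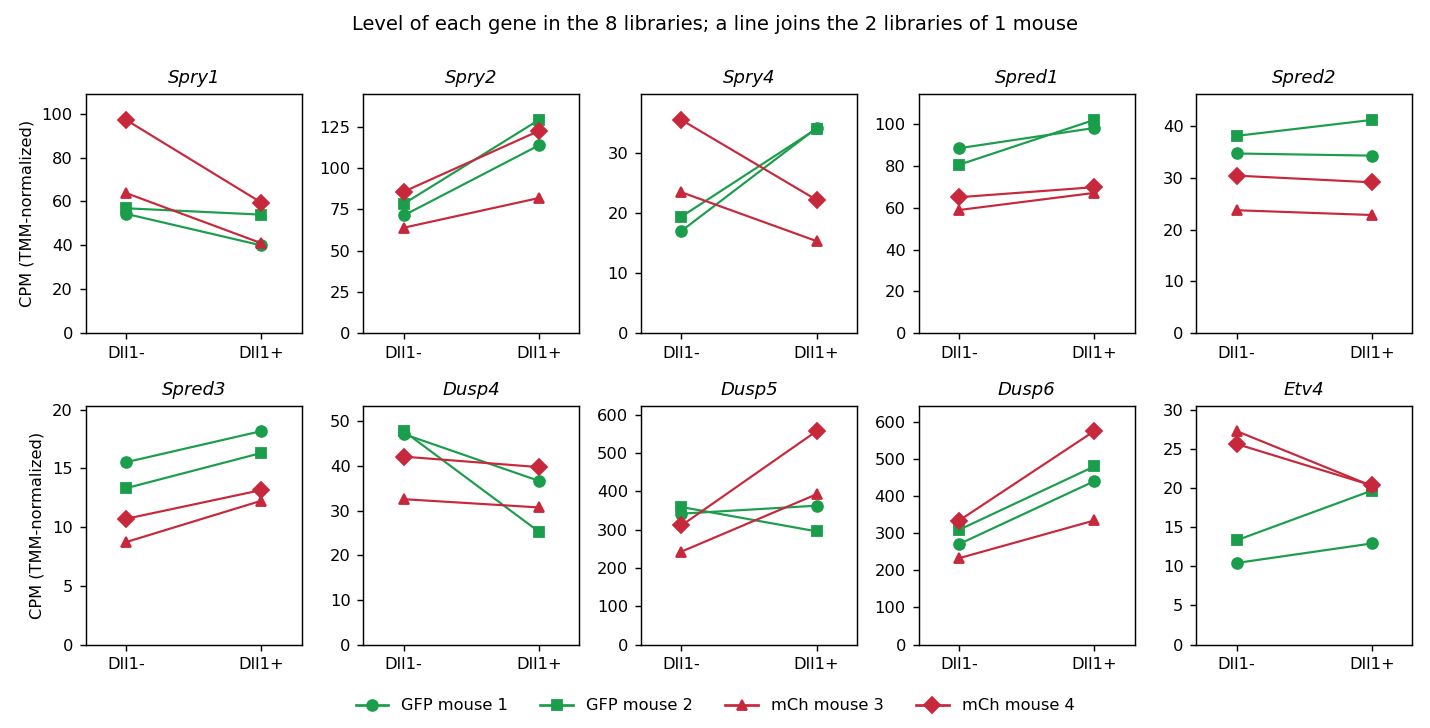
Levels of the 10 genes in CPM (y axis, from 0) in the Dll1- and Dll1+ library of each mouse, where a line joins the libraries of 1 mouse and color and symbol give the reporter and mouse. The lines of Spry2 and Dusp6 go up and those of Spry1 and Dusp4 go down in all 4 mice, while those of Spry4 and Etv4 go up in GFP and down in mCh mice.

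Among the phosphatases, Dusp6 was higher in the Dll1+ cells of every mouse. Dusp6 (chr10:99263231-99267489, + strand, GRCm38) encodes the cytoplasmic phosphatase MKP-3, which is selective for ERK. In Dll1- cells, Dusp6 was at 271, 310, 233 and 335 CPM in mice 1 to 4, and in Dll1+ cells at 441, 481, 335 and 576 CPM. It was the only one of the 10 whose 4 Dll1+ libraries all lay above the 4 Dll1- libraries, as did 2.74% of all genes. The gap was small, since the lowest Dll1+ library (mouse 3) and the highest Dll1- library (mouse 4) were both at 335 CPM when rounded. None of the 10 had its 4 Dll1+ libraries all below the Dll1- libraries, as 3.33% of all genes had. The log2 fold change of Dusp6 was 0.66 ± 0.07 (SE, 4 mice), or 1.58-fold, and it was alike in GFP mice (0.67 ± 0.10) and mCh mice (0.65 ± 0.10). Within single mice it ranged from 0.52 to 0.78. The sum of the 6 basal markers was also higher in the Dll1+ cells of every mouse. It was 127 and 157 CPM in Dll1- and 205 to 373 CPM in Dll1+ cells of GFP mice. In mCh mice it was 310 to 636 and 1220 to 1464 CPM. Single markers did not all rise. Krt17 went from 15.3 to 14.7 CPM in mouse 2, and in mouse 4 Acta2 went from 213 to 172 and Myh11 from 46.3 to 34.8. Of the 6, 2 were past the threshold as higher over 4 mice and 0 as lower, and their part in the Dusp6 and Spry2 values was not tested.

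Dusp4 went the other way in GFP mice. Dusp4 (chr8:34807297-34819894, + strand) encodes MKP-2, a nuclear phosphatase of ERK and other MAP kinases. It was at 47.1 and 47.8 CPM in the Dll1- and at 36.7 and 25.3 CPM in the Dll1+ libraries of mice 1 and 2. In mCh mice, the Dll1- libraries were at 32.6 and 42.1 CPM and the Dll1+ libraries at 30.7 and 39.7 CPM, so that each mouse differed little and the groups overlapped. On the log2 scale the fold change was -0.64 ± 0.14 in GFP mice, past the threshold, and -0.08 ± 0.14 in mCh mice. The difference between the reporters, -0.56 ± 0.20, was not past it. The GFP call held in 3 of 10 alternatives, and it was lost with RLE size factors (-0.63), with the GFP libraries fitted alone (-0.63), without the mouse block (-0.62) and without any 1 of the 4 mice (-0.91 to -0.36). Mouse 2 carried most of the GFP value, with a log2 difference of -0.92 against -0.36 in mouse 1.

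The ratio of Dusp6 to Dusp4 counts within a library, which needs no scaling between libraries, was 5.75, 6.48, 7.16 and 7.96 in the Dll1- cells of mice 1 to 4. In the Dll1+ cells of the same mice it was 12.0, 19.0, 10.9 and 14.5. The ratio was between 1.52 and 2.94 times higher in the Dll1+ library of each mouse. That direction follows from Dusp6 being higher and Dusp4 lower in each mouse, so the ratio adds only a size. The ratio of Dusp6 to Dusp5 counts did not have 1 direction. It was 0.794 and 0.863 in the Dll1- and 1.22 and 1.63 in the Dll1+ cells of mice 1 and 2, but 0.961 and 1.08 in the Dll1- and 0.854 and 1.03 in the Dll1+ cells of mice 3 and 4.

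Dusp5 differed in mCh mice. Dusp5 (chr19:53529109-53542431, + strand) encodes a nuclear phosphatase that acts on ERK. In mCh mice it was at 243 and 311 CPM in Dll1- and at 393 and 557 CPM in Dll1+ cells. In GFP mice it was at 342 and 359 CPM in Dll1- and at 363 and 296 CPM in Dll1+ cells, with mouse 1 slightly up and mouse 2 down. The log2 fold change was 0.77 ± 0.12 in mCh mice, past the threshold, and -0.10 ± 0.12 in GFP mice. The difference between them, GFP minus mCh, was -0.87 ± 0.17 and not past the threshold. An antisense gene overlaps 547 exonic bases of Dusp5, and its reads were not analysed here.

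Spry2 moved with Dusp6. Spry2 (chr14:105891947-105896819, - strand) encodes a Sprouty protein that limits receptor tyrosine kinase signaling to ERK. In Dll1- cells it was at 71.4, 78.4, 64.0 and 85.8 CPM in mice 1 to 4, and in Dll1+ cells at 114, 129, 81.9 and 123 CPM. Mouse 3 was the lowest in both, and its Dll1+ library lay below the Dll1- library of mouse 4. The log2 fold change was 0.57 ± 0.07 over 4 mice (1.48-fold), 0.70 ± 0.08 in GFP and 0.44 ± 0.08 in mCh mice, past the threshold in all 3 comparisons.

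Spry1 was lower where Spry2 was higher. Spry1 (chr3:37639947-37644598, + strand) is the paralog that acts at the same step. The unclassified gene Gm42922 overlaps 710 of its exonic bases on the other strand and had 1 to 11 counts per library. In Dll1- cells it was at 54.4, 56.9, 63.8 and 97.1 CPM in mice 1 to 4, and in Dll1+ cells at 40.0, 54.0, 41.0 and 59.5 CPM. Each Dll1+ library lay below the Dll1- library of its own mouse, though mouse 2 by a log2 difference of only -0.08, against -0.44 in mouse 1, -0.64 in mouse 3 and -0.71 in mouse 4. The log2 fold change over 4 mice was -0.47 ± 0.11 (0.723-fold). It was -0.67 ± 0.10 in mCh mice, past the threshold, and -0.26 ± 0.10 in GFP mice, not past it. In mCh mice, the fibroblast, pericyte, endothelial and immune markers were lower in Dll1+ cells too, and their part in the Spry1 value was not tested. Over 4 mice Spry1 was no longer past the threshold without mouse 1 (-0.47), without mouse 3 (-0.41) or without mouse 4 (-0.39).

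The ratio of Spry2 to Spry1 counts was 1.31, 1.38, 1.0 and 0.883 in the Dll1- cells of mice 1 to 4. In the Dll1+ cells it was 2.84, 2.39, 2.00 and 2.06. It was between 1.74 and 2.33 times higher in the Dll1+ library of each mouse. That direction follows from Spry2 being higher and Spry1 lower in each mouse, so the ratio adds only a size.

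**Figure D2:**
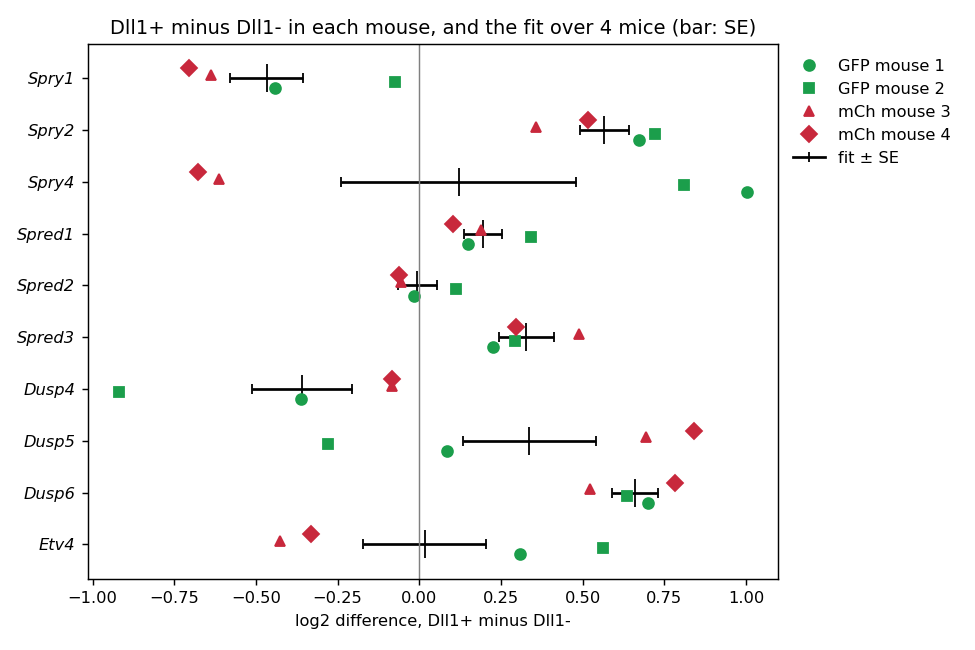
Difference of log2 CPM between the Dll1+ and the Dll1- library of each mouse (x axis, points) for each gene (y axis), with the log2 fold change of the fit over 4 mice as a black mark and its SE as a bar. Dusp6 lies between 0.52 and 0.78 in every mouse, and the GFP and mCh points of Spry4 lie on opposite sides of 0.

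Spry4 changed sign between the reporters. Spry4 (chr18:38586247-38601415, - strand) encodes another Sprouty protein that restrains the pathway downstream of growth factor receptors. In GFP mice it was at 17.1 and 19.4 CPM in Dll1- and at 34.2 and 34.1 CPM in Dll1+ cells. In mCh mice it was at 23.5 and 35.6 CPM in Dll1- and at 15.4 and 22.2 CPM in Dll1+ cells. With 2 mice per reporter, the groups did not overlap within either reporter, and the direction was opposite. The share of all genes with such a separation was not counted. The log2 fold change was 0.91 ± 0.10 in GFP mice (1.87-fold) and -0.65 ± 0.10 in mCh mice (0.639-fold), both past the threshold.

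The difference between these effects, GFP minus mCh, was 1.55 ± 0.14 for Spry4. It was past the threshold in the comparison of the reporters, where 13 of all genes were (0.0710%), a share given beside the count only. The other 9 of the 10 genes were not past it. Over 4 mice, the opposite values gave a log2 fold change of 0.12 ± 0.36, with the widest SE of the 10 genes.

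Etv4 (chr11:101769742-101785371, - strand) had the same pattern of signs as Spry4 at a lower size. In GFP mice Etv4 was at 10.4 and 13.3 CPM in Dll1- and at 12.9 and 19.7 CPM in Dll1+ cells. In mCh mice it was at 27.3 and 25.7 CPM in Dll1- and at 20.3 and 20.4 CPM in Dll1+ cells. Each GFP mouse was higher and each mCh mouse lower in Dll1+ cells, a pattern that Spry4 and Etv4 shared with 5.34% of all genes. Its log2 fold change was 0.44 ± 0.12 in GFP mice and -0.38 ± 0.11 in mCh mice, neither past the threshold, and the difference was 0.82 ± 0.16, also not past it. The markers of fibroblasts, pericytes, endothelial and immune cells moved down with Spry4 and Etv4 in the Dll1+ cells of mCh mice, and their part in these values was not tested.

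**Figure D3:**
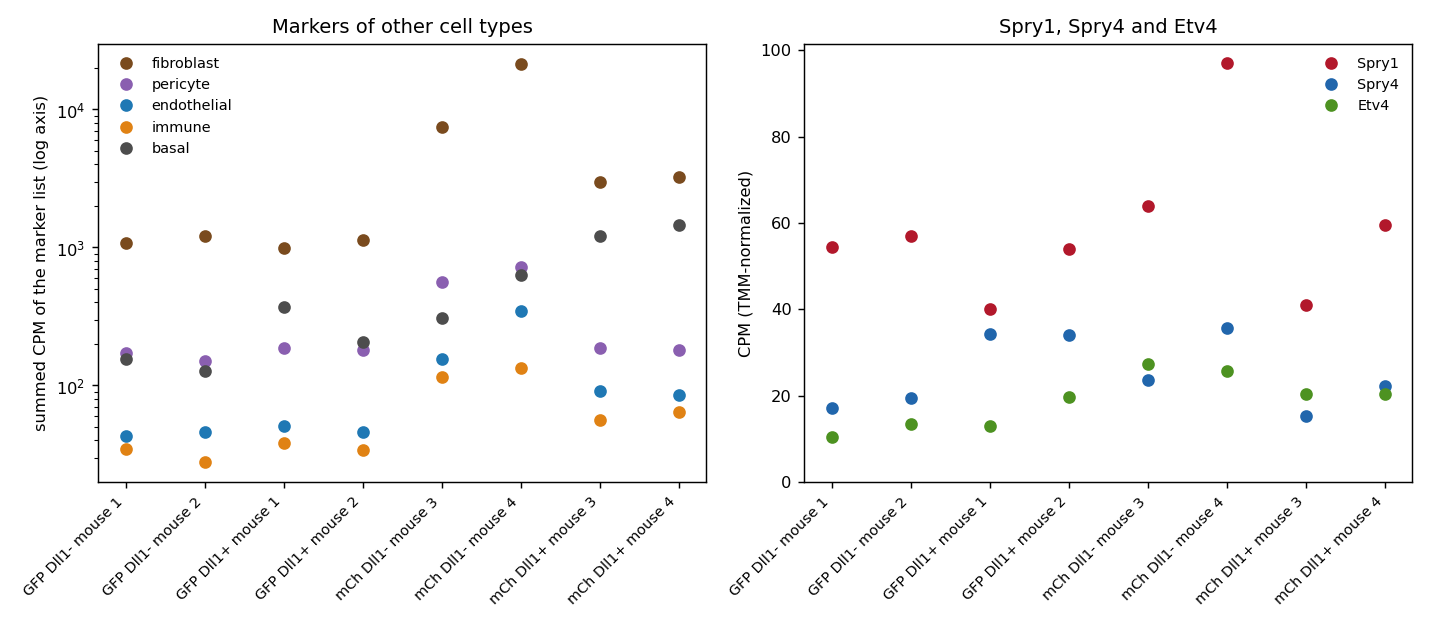
Left, the summed CPM of 5 marker lists (y axis, log scale) in each of the 8 libraries (x axis). Right, the CPM of Spry1, Spry4 and Etv4 in the same libraries (y axis, from 0). The fibroblast, pericyte, endothelial and immune sums are highest in the 2 Dll1- libraries of mCh mice, where Spry1 and Etv4 are also highest.

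Per reporter, 4 of the 10 genes were past the threshold in GFP mice, with Spry2, Spry4 and Dusp6 higher and Dusp4 lower, where 9.13% of all genes were past it. In mCh mice 5 were, with Spry2, Dusp5 and Dusp6 higher and Spry1 and Spry4 lower, where 11.8% of all genes were. Only Spry2 and Dusp6 were past it in the same direction in both reporters. Their differences between the reporters were 0.26 ± 0.11 for Spry2 and 0.01 ± 0.14 for Dusp6. With a mouse left out, 1 mouse of its reporter remained, so lost calls there cannot be told from lost precision. With any 1 mouse left out, Spry1 lay between -0.73 and -0.67 in mCh mice and Spry2 between 0.33 and 0.49. Spry4 lay between -0.70 and -0.64 there, Dusp5 between 0.67 and 0.82 and Dusp6 between 0.49 and 0.76. Without mouse 1, the log2 fold changes of Spry2, Spry4, Dusp6 and Dusp4 in GFP mice were 0.73, 0.82, 0.64 and -0.91. Without mouse 2 they were 0.67, 1.01, 0.70 and -0.36.

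No Spred gene was past the threshold between Dll1+ and Dll1- cells in the main fit. Spred1 (chr2:117121374-117182279, + strand) was at 88.5, 80.6, 59.0 and 65.1 CPM in the Dll1- cells of mice 1 to 4 and at 98.2, 102, 67.1 and 69.9 CPM in the Dll1+ cells. Spred3 (chr7:29158829-29170411, - strand) was at 15.5, 13.3, 8.72 and 10.7 CPM in Dll1- and at 18.2, 16.3, 12.2 and 13.2 CPM in Dll1+ cells. Both were higher in the Dll1+ library of every mouse, with log2 fold changes of 0.20 ± 0.06 and 0.33 ± 0.08 that were not past the threshold. Of 9 alternatives over 4 mice, Spred3 passed it in 3 and Spred1 in 1. Ggn overlaps 202 exonic bases of Spred3 on the other strand and had 59 to 283 counts per library. Spred2 (chr11:19924375-20024026, + strand) was at 34.7, 38.1, 23.7 and 30.4 CPM in Dll1- and at 34.2, 41.1, 22.8 and 29.1 CPM in Dll1+ cells. Its log2 fold change was -0.01 ± 0.06, with single mice between -0.06 and 0.11.

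The Spred genes were also compared between the mice of the 2 reporter lines. All 4 libraries of mCh mice lay below all 4 of GFP mice for Spred1, Spred2 and Spred3, as did 21.8% of all genes. Etv4 was the reverse, with all 4 mCh libraries above all 4 GFP libraries, as in 21.5% of all genes. In Dll1- cells, 3 of the 10 genes were past the threshold between the lines, where 36.6% of all genes were. Etv4 was higher in mCh mice, by 1.16 ± 0.22 on the log2 scale, and Spred1 (-0.45 ± 0.10) and Spred3 (-0.57 ± 0.16) were lower. In Dll1+ cells 2 were past it, Spry4 (-0.86 ± 0.24) and Spred1 (-0.55 ± 0.10), both lower in mCh mice, where 30.6% of all genes were. Spry4 had a log2 fold change of 0.69 ± 0.24 in Dll1- cells, not past the threshold, so the order of the lines differed between the sorted populations. Spry2 and Dusp6 had values near 0 in Dll1- cells (-0.00 ± 0.22 and -0.03 ± 0.28). Their values in Dll1+ cells were -0.25 ± 0.22 and -0.02 ± 0.28. With 1 GFP mouse left out, 1 remains in that line, so lost calls there cannot be told from lost precision. With any 1 mouse left out, Etv4 stayed between 0.98 and 1.32 in Dll1- cells. Spred1 lay between -0.53 and -0.38 and Spred3 between -0.70 and -0.43 there. In Dll1+ cells, Spry4 lay between -1.15 and -0.65 and Spred1 between -0.59 and -0.54.

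**Figure D4:**
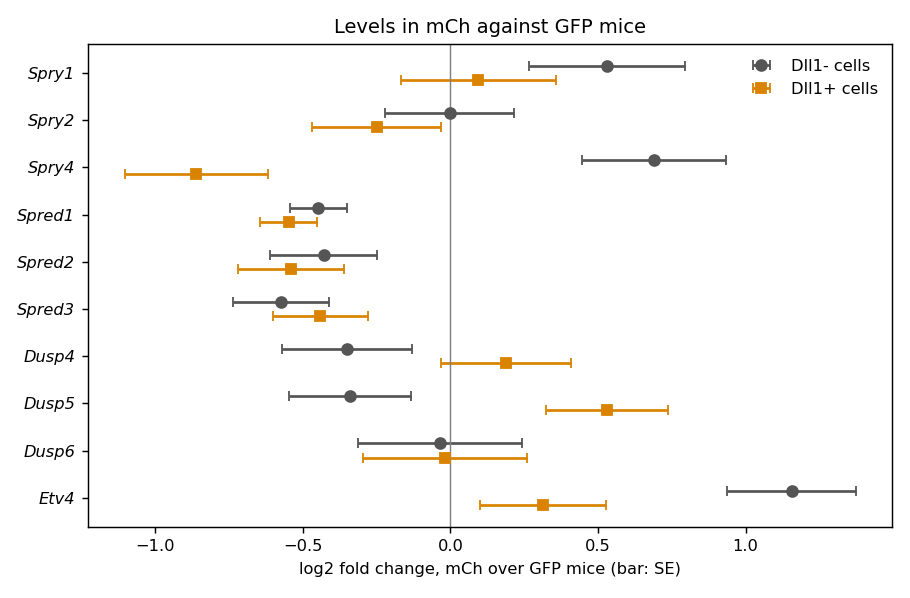
Log2 fold change of mCh over GFP mice (x axis, bars are the SE) for each gene (y axis), in Dll1- cells (grey circles) and Dll1+ cells (orange squares). The 3 Spred genes lie below 0 in both populations, Etv4 lies at 1.16 in Dll1- cells, and Spry4 is at 0.69 in Dll1- and -0.86 in Dll1+ cells.

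Levels were compared between genes as CPM per kilobase of exon. Dusp5 and Dusp6 had the highest medians over the 8 libraries, 142 and 107 CPM per kilobase, and their ranges overlapped. Spry2 followed at 40.2, below the range of Dusp6 in every library. Spry1 (19.1), Dusp4 (13.9), Spred1 (11.1), Spred2 (7.0), Etv4 (6.44) and Spry4 (4.81) came next, and each overlapped its neighbor in this order. Spred3 was lowest at 2.13 CPM per kilobase and did not overlap Spry4. The ERK phosphatases Dusp5 and Dusp6 were thus listed at higher levels per length than the Sprouty and Spred genes in every library.

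The genes most like each of the 10 were found by the root mean square (RMS) difference of log2 CPM, centred on each gene's own mean, over the 8 libraries. Spry2 and Dusp6 were each other's nearest among the 10, at an RMS difference of 0.11 on the log2 scale. Over all genes, the median was 0.52 from Spry2 and 0.56 from Dusp6. The nearest of all genes were Fam129b to Spry2 (0.07) and Srsf12 to Dusp6 (0.11). Spred1 and Spred3 were likewise nearest each other among the 10 (0.11), and Spred2 was nearest Spred1 (0.16). Spry4 and Etv4, though of like signs, were not each other's nearest. Spry4 was nearest Spry2 at 0.40 and Etv4 nearest Spry1 at 0.42, and in the whole table Spry4 was nearest Slc7a8 (0.14) and Etv4 nearest Zmat5 (0.16). These distances describe 8 libraries that share 4 mice and 2 lines.

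The rest of the pathway was read from lists of 62 other genes, of which 59 were tested. Adjusted p-values here are from edgeR's quasi-likelihood test over all 18322 genes. These lists too were chosen with earlier results of these data known, so their p-values and counts are a description. Over 4 mice, 1279 of all genes tested rose and 1289 fell. Among 10 other genes known to be induced by ERK, 4 rose in Dll1+ cells over 4 mice, 0 fell and 6 did not pass the test, with a median log2 fold change of 0.37. Ier3, an early response gene, rose by 0.77 ± 0.08 on the log2 scale (adjusted p = 0.00645), from 503 ± 166 CPM (SD, 4 libraries) in Dll1- to 866 ± 293 CPM in Dll1+ cells. Epha2, a receptor tyrosine kinase, rose by 0.76 ± 0.11 (adjusted p = 0.0122), and the transcription factor gene Egr1 by 0.71 ± 0.11 (adjusted p = 0.0167). All 3 were higher in 4 of 4 mice. The ETS paralogs of Etv4 were not alike. Etv1 rose by 0.48 ± 0.08 (adjusted p = 0.0188) and was higher in 4 of 4 mice, whereas Etv5 stood at -0.11 ± 0.09 on that scale (adjusted p = 0.422) and was higher in 2 of 4. Etv1 is the fourth gene past the threshold, and Etv5 was named for its family after its value was seen.

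Among 7 other MAP kinase phosphatases, 2 rose, 1 fell and 4 did not pass the test, and the median was -0.20. Dusp8 and Dusp16, which act mainly on JNK and p38, rose by 0.62 ± 0.07 (adjusted p = 0.00823) and 0.32 ± 0.07 (adjusted p = 0.0365), each higher in 4 of 4 mice. Dusp9, a cytoplasmic ERK phosphatase of the same subfamily as Dusp6, fell by 1.56 ± 0.33 on the log2 scale (adjusted p = 0.0328) at a low level, from 3.48 ± 0.871 to 1.34 ± 0.906 CPM, and was higher in 0 of 4 mice. Dusp9 and Dusp6 thus differed in opposite directions.

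Among 6 tested inhibitors of RAS-ERK signaling of other families, 3 rose and 2 fell. The RAS GTPase-activating genes Rasa1 (0.32 ± 0.05, adjusted p = 0.0196) and Nf1 (0.34 ± 0.06, adjusted p = 0.0231) rose, as did the EGF receptor inhibitor Errfi1 (0.45 ± 0.08, adjusted p = 0.0246). Nf1 encodes the partner of Spred1 and Spred2. Il17rd, an FGF receptor antagonist also called Sef, fell by 0.70 ± 0.13 (adjusted p = 0.0245), and the RAF inhibitor gene Pebp1 fell by 0.37 ± 0.08 (adjusted p = 0.0389). The 5 genes had the same direction in 4 of 4 mice. The median of this list was 0.29.

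In the RAS-RAF-MEK-ERK core, 1 of 16 genes rose and 0 fell, with a median of -0.02. That gene was Sos2, which encodes a RAS exchange factor (0.27 ± 0.06, adjusted p = 0.0325). Among 10 tested genes of FGF ligands, receptors and their adaptor, 3 rose and 0 fell. Fgf1 rose by 0.77 ± 0.07 (adjusted p = 0.00633), Fgfr1 by 0.98 ± 0.16 (adjusted p = 0.0187) and the adaptor gene Frs2 by 0.31 ± 0.07 (adjusted p = 0.0338). Fgfr1 went from 320 ± 74.5 CPM in Dll1- to 665 ± 284 CPM in Dll1+ cells and was higher in 4 of 4 mice. Not past the threshold, Fgfr2 stood at -1.40 ± 0.44, the largest size in the list, and was higher in 1 of 4 mice. Fgfr4 was at -0.80 ± 0.36 (higher in 0 of 4) and Fgf2 at 1.21 ± 0.49 (higher in 3 of 4), also not past it. The median of the FGF list was 0.06.

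Immediate-early genes respond to ERK and also to tissue dissociation. Of 12, 9 rose, 0 fell and 3 did not pass the test, with a median of 0.56. Atf3 (0.66 ± 0.08, adjusted p = 0.00879), Ier2 (0.62 ± 0.09, adjusted p = 0.0146) and Fos (0.62 ± 0.10, adjusted p = 0.0159) had the lowest p, and each was higher in 4 of 4 mice. Egr1 stands in this list and in the ERK list, and Dusp1 in this list and among the phosphatases. The tumors were digested before the sort, and the part of dissociation in these values and in those of Dusp6 and Spry2 was not tested. In the comparison of the reporters, 0 of the 59 pathway genes were past the threshold. At an unadjusted p under 0.05, 2420 of the 18322 genes were in that comparison, and other fits called up to 9 of the pathway genes.

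**Figure D5:**
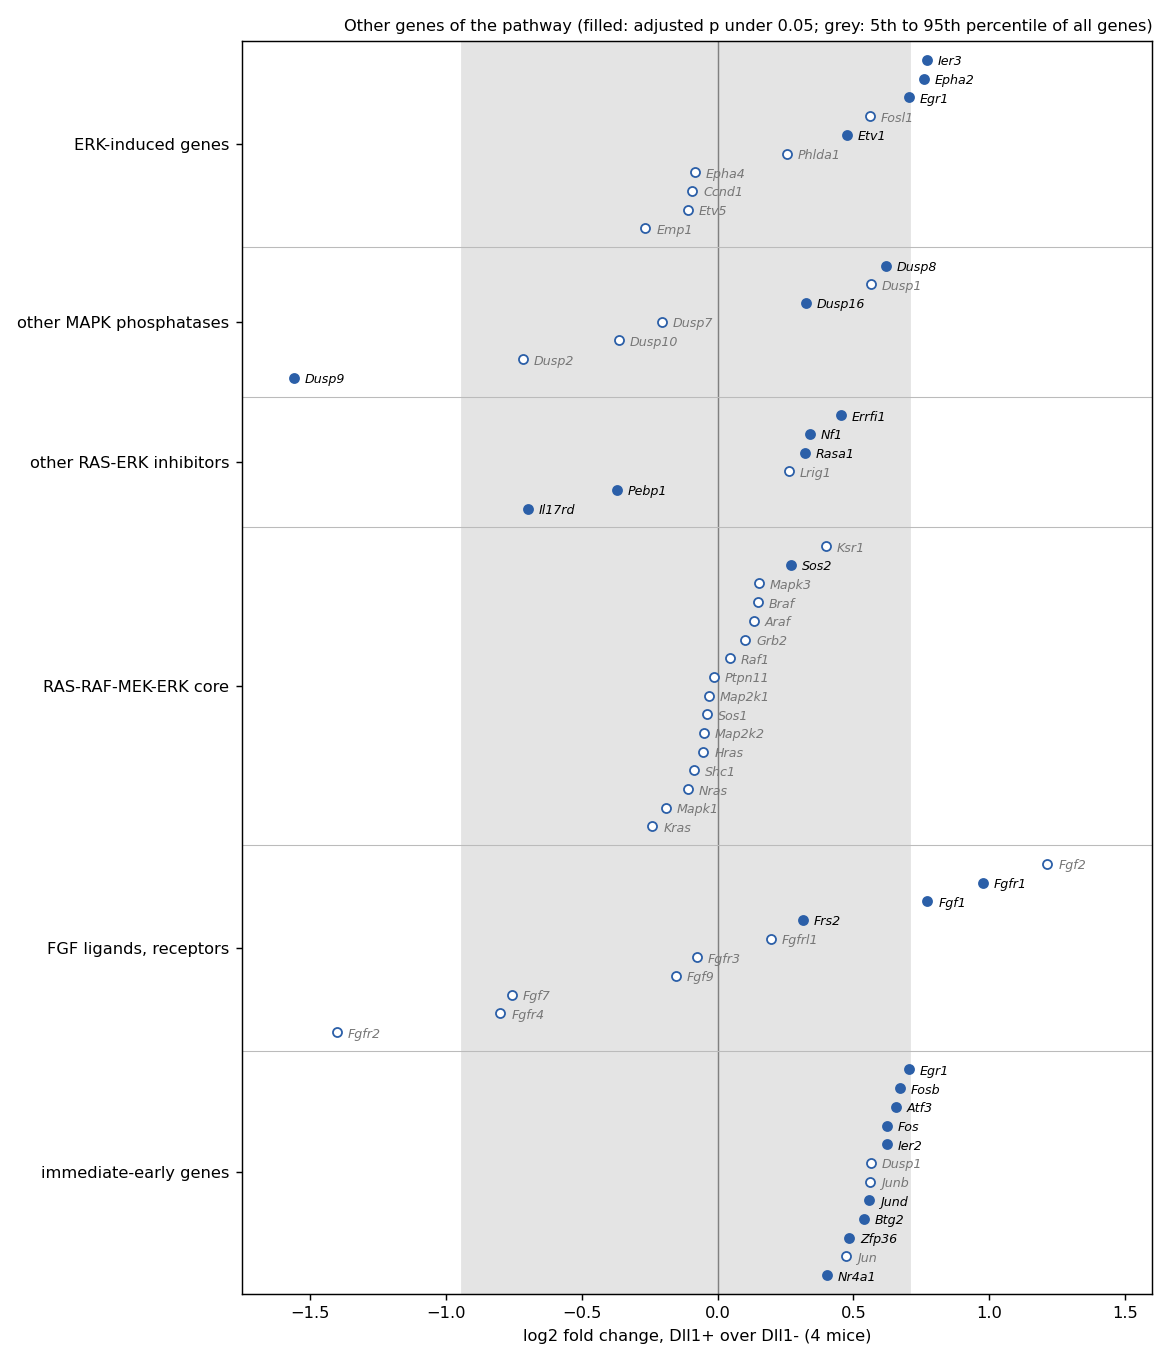
Log2 fold change of Dll1+ over Dll1- cells over 4 mice (x axis) for the tested genes of 6 other lists (y axis). Filled points had an adjusted p under 0.05 in edgeR's quasi-likelihood test, and the grey band spans the 5th to 95th percentile of all genes (-0.94 to 0.71). All 12 immediate-early genes lie above 0, while the genes of the core cluster around 0.

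The lists were also read in each reporter alone. Of all genes tested, 786 rose and 887 fell in GFP mice, and 1009 rose and 1145 fell in mCh mice. The immediate-early median was 0.65 in GFP mice, where 6 of 12 rose, and 0.54 in mCh mice, where 5 of 12 rose. Of the ERK-induced genes, 4 rose and 1 fell in GFP mice (median 0.33), and 3 rose and 1 fell in mCh mice (median 0.47). These were not all the same genes. Epha4 fell in GFP mice (-0.71 ± 0.12) and rose in mCh mice (0.52 ± 0.12), with a difference of -1.23 ± 0.17 that was not past the threshold. The gene that fell in mCh mice was Emp1 (-0.62 ± 0.08), which stood at 0.09 ± 0.08 in GFP mice. Among the other phosphatases, 2 rose and 3 fell in GFP mice, and 2 rose and 1 fell in mCh mice. Of the other inhibitors, 2 rose and 2 fell in GFP mice, and 1 rose and 0 fell in mCh mice. In the FGF list 3 rose and 1 fell in GFP mice, and 2 rose and 0 fell in mCh mice. In the core, 1 rose and 1 fell in GFP mice, and 0 were past the threshold in mCh mice. The difference between reporters in these counts was not tested.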

How the data were processed

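RNA-seq libraries of 4 mice were grouped by reporter and Dll1 status as the labels give them, and paired by the mouse named in the labels. The authors mapped reads from a stranded TruSeq kit with salmon to GENCODE M20 transcripts (GRCm38.p6) and summarized transcripts per gene with tximport. The deposited values are estimated counts in whole numbers, not normalized. Software versions and salmon's strand setting are not given in the sources used here, so reads of a gene and its opposite-strand partner cannot be told apart. Library totals (27301396 to 123907626) and the spread between mice set the precision.

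The 10 genes and all lists were chosen with earlier results of these data known. Counts were tested here with edgeR 4.0.16 in R 4.3.3 (TMM, filterByExpr, robust quasi-likelihood F test) on 18322 genes, with the mouse as a block, and with a separate Dll1 effect for each reporter over all 8 libraries. Reporter lines were compared with 1 mean per group and no block. P-values were adjusted over all genes (Benjamini-Hochberg, threshold 0.05). The pairing comes from the shared animal. Same-mouse deviations from group means correlated over genes at -0.05 in GFP and 0.55 in mCh mice. The labels name separate mice. With the mouse as a block, p-values of the Dll1 comparisons measure how the within-mouse difference varies between mice. In the comparison within 1 reporter, that spread is shared by the mice of both reporters. P-values there do not measure the spread of that reporter's mice alone. The comparison of the lines takes its spread from all 8 libraries as if separate, though each mouse gave 1 Dll1+ and 1 Dll1- library. Log2 CPM used a prior count of 2.

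From each other list, up to 3 genes per direction with the lowest p among those past the threshold over 4 mice were named. Alternatives were DESeq2 1.42.0, RLE size factors, a filter of 10 or more counts in all libraries or no filter, no replicate block, the libraries compared fitted alone, and each mouse left out. The edgeR step was run on simulated data with changes larger than those of the 10 genes, so that run does not bear on their calls. Gene positions are from GENCODE M21 and promoters from RefSeq. Promoters were not analysed here for Spry4, Dusp4 and Etv4. ATAC-seq and other data of the study were not used here.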

Additional observations from a re-analysis of the deposited data

Results flagged for a closer look

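Spry4 had opposite directions in the reporters, with both GFP mice higher and both mCh mice lower in Dll1+ cells. The difference of the log2 fold changes, GFP minus mCh, was 1.551, and edgeR's test of the difference was past the threshold. Etv4 had the same pattern of signs with a difference of 0.8218, which was not past the threshold in that test. Etv4 also stood out for 1 library. Among its 4 Dll1+ libraries, that of GFP mouse 1 was at 12.9 CPM and the others were between 19.7 and 20.4 CPM. In log2 CPM, the gap over the range was 0.9275, above Dixon's critical value. Chance flags about 1 in 20 such groups, and 30 groups of 4 libraries were looked at, of which 1 was past the critical value.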

How the results depend on the processing

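No log2 fold change of the 10 genes that was past the threshold reversed under any alternative. Of 560 values, 474 kept their side of the threshold, 58 fell short of it, 24 passed it and 4 others moved. The sign changed in 26 of the 560, in values that were not past the threshold, among them Spry4 (0.12) and Etv4 (0.02) over 4 mice, which were -0.17 and -0.07 without mouse 1 and -0.11 and -0.16 without mouse 2. Over 4 mice, 3 of the 10 genes were past the threshold, 5 with DESeq2 and 0 without the replicate block, and 1 to 3 with a mouse left out. Dusp6 stayed past it in 8 of 9 alternatives, Spry2 in 7 and Spry1 in 4, and without mouse 1 only Dusp6 did. In GFP mice, 4 became 0 without the replicate block and 0 to 3 with a mouse left out, the 0 without mouse 1 or mouse 2. In mCh mice, 5 became 0 without the replicate block, 0 with the libraries fitted alone and 0 to 5 with a mouse left out, the 0 without mouse 4, and without mouse 2 it was 3. For the difference between reporters, 1 became 3 (Spry4, Dusp5 and Etv4) with DESeq2 and 3 with no filter, 0 without the replicate block, and 0 to 1 with a mouse left out, the 0 without mouse 1 or mouse 2. Between the lines in Dll1- cells, 3 became 0 to 6 with a mouse left out, and in Dll1+ cells 2 became 4 with no filter and 0 to 5 with a mouse left out. In both, the 0 came without a GFP mouse and the highest count without mouse 4. A lone remaining mouse of a reporter is assumed to vary like the others, so lost calls there cannot be told from lost precision. Over all genes, the calls over 4 mice ranged from 405 to 4362 (main 2568), in GFP mice from 2 to 3001 (1673), in mCh mice from 0 to 3637 (2154), for the difference from 0 to 1143 (13), and between the lines from 0 to 7828 in Dll1- (6701) and from 0 to 6897 in Dll1+ cells (5612). Of the pathway genes, 24 were past the threshold over 4 mice (3 to 34). The cause of these changes was not tested. With 2 mice per reporter, the number of mice limits each comparison within a reporter.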
